A study of Mus musculus with 6 samples.

Results

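The 9 genes Mgl2, Retnla, Mrc1, Lyve1, Folr2, Cd163, Timd4, Cd207 and Cx3cr1 are 9 of the 31053 gene rows measured by droplet single-cell RNA sequencing of mouse mitral valves, and they were taken by their symbols. They were followed across myeloid cells, which were chosen by marker counts: at least 2 UMIs (unique molecular identifiers, each standing for 1 captured transcript) of Tyrobp and Fcer1g together, and under 0.5% of UMIs from the collagen-matrix genes Dcn, Col1a1 and Col1a2. That rule took 1108 of 53526 cells. Tyrobp and Fcer1g encode signalling adaptors that NK and mast cells also carry, so the rule reaches beyond macrophages.

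The K/B.g7 mice, titled inflamed, have the KRN transgene for a T cell receptor, and their valves were taken at 3, 8 and 25 weeks of age. The valves set against them came from B.g7 mice without that transgene, titled control, at the same 3 ages, and both strains carry the g7 MHC haplotype. Each genotype and age was 1 library of live sorted cells from enzyme-digested valves, so each genotype had 3 libraries that differed in age, and the labels do not say how many mice were pooled in a library. The K/B.g7 libraries held 77, 422 and 233 myeloid cells at 3, 8 and 25 weeks, and the B.g7 libraries held 55, 148 and 173.

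Macrophages that settle in a tissue before or after birth renew there or are replaced by blood monocytes, and a shared set of surface receptors marks those that have been resident for longest. Mrc1, Cd163, Lyve1, Folr2 and Timd4 belong to that set in many mouse tissues, the heart included, and serve the uptake of glycoproteins, haemoglobin, hyaluronan, folate and dying cells. Mgl2 and Retnla are known in mouse macrophages as genes switched on by the cytokines IL-4 and IL-13 through the transcription factor STAT6, Cd207 is the Langerhans cell lectin, and Cx3cr1 is the receptor for fractalkine on monocytes and many resident macrophages.

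The sequences just upstream of Retnla and Mgl2 are shown because both genes are known IL-4 targets and because they are carried by different numbers of valve cells. Both are RefSeq promoter windows on GRCm38.p6, the plus strand, cut where the annotated gene begins, and capitals mark every match on either strand to TTCNNNNGAA, a STAT6-type spacing, or to TTGCNNAA, a C/EBP-type motif.
Retnla, chr16:48842359-48842550: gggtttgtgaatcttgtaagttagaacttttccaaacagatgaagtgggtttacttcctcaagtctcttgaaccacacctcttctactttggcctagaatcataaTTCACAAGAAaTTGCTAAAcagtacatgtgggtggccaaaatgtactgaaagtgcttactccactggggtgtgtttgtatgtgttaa
Mgl2, chr11:70130107-70130328: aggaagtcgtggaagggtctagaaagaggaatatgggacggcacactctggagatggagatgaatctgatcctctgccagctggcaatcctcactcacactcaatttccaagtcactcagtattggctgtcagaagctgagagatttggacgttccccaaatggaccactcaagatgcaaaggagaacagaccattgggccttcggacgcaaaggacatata
The Retnla window of 192 bases held 1 match to each motif, and the 2 matches did not overlap. The STAT6-type match began 87 bases before the end of the window and is in 4.58% of 32851 promoters over the same length, and the C/EBP-type match began 76 bases before it and is in 7.84%. The Mgl2 window of 222 bases held neither set of letters, which occur in 5.27% and 8.84% of promoters over that length. A match is a description of these letters and not a binding site.

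The libraries were not alike in depth or in the cells that the rule let in. Their totals ran from 15196750 to 69152541 UMIs, and the median myeloid cell held 3029, 4788.5 and 1752 UMIs in the K/B.g7 libraries at 3, 8 and 25 weeks and 2252, 4174.5 and 3614 in the B.g7 libraries. No myeloid barcode was shared between libraries. Ptprc, the pan-leukocyte gene, had a UMI in 71.8% of the 1108 cells. A group of 26 cells carried at least 3 UMIs of the lymphatic endothelial genes Prox1, Mmrn1, Ccl21a, Flt4 and Reln: 0, 6 and 8 in the K/B.g7 libraries and 1, 1 and 10 in the B.g7 libraries. Of these cells 24 had Prox1, 26 had Ccl21a, 21 had no Tyrobp and 3 had Ptprc. A single such cell held 68855 of the 219856 myeloid UMIs of the B.g7 library at 3 weeks, so values without the 26 cells are added below where they bear on a result. NK-type genes also moved with the libraries: cells in an NK or innate lymphoid gate were 25.3% of the K/B.g7 myeloid cells at 25 weeks and 26.4% of the B.g7 ones at 8 weeks, against 3.90% and 3.64% at 3 weeks, and their part in the levels below was not tested beyond leaving them out.

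Within the 1108 cells, gates on marker counts gave ranges rather than cell types. The largest held 392 cells (35.4%) with at least 3 UMIs of C1qa, C1qb and C1qc, the complement genes of tissue macrophages, called here the C1q gate. It held 47, 148 and 59 cells in the K/B.g7 libraries and 26, 50 and 62 in the B.g7 libraries. A monocyte gate (Ly6c2, Plac8, Ccr2, Ms4a4c, Chil3) held 244 cells, a dendritic gate 81, and the NK or innate lymphoid gate 180. Few cells lay near the boundary of the C1q gate, with 40 at 1 to 2 UMIs of the C1q genes and 24 at 3 to 5. Myeloid cells were 1.34%, 4.53% and 1.16% of all kept cells in the K/B.g7 valves at 3, 8 and 25 weeks and 1.46%, 2.56% and 1.97% in the B.g7 valves, a difference of means that did not exceed the spread between libraries (2.34 ± 1.90% against 2.00 ± 0.554%, SD, n = 3 each; two-sided exact permutation p = 1, where the design can go no lower than 0.1). The C1q gate took 61.0%, 35.1% and 25.3% of myeloid cells in the K/B.g7 libraries and 47.3%, 33.8% and 35.8% in the B.g7 libraries, and these also overlapped (40.5 ± 18.5% against 39.0 ± 7.27%, exact permutation p = 0.9).

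The 9 genes fell into 3 kinds by where in the valve their transcripts were. Timd4, Cd207, Retnla, Mgl2, Folr2 and Cd163 were largely myeloid: 95.5% of 66 UMIs, 92.4% of 330, 92.1% of 8502, 81.1% of 1278, 78.3% of 166 and 66.7% of 75 counted over all kept cells lay in the 1108 cells. Mrc1 was shared with lymphatic endothelium, with 55.9% of its 1219 UMIs in myeloid cells and 30.9% in a lymphatic endothelial gate outside the rule. Lyve1 and Cx3cr1 lay mostly elsewhere. Of 8723 Lyve1 UMIs 5.58% were myeloid, while the lymphatic endothelial gate (1082 cells) held 55.5% and other endothelial cells 21.7%, and of 2796 Cx3cr1 UMIs 22.5% were myeloid. These are shares of transcripts, so they also reflect how many cells of each kind were captured.

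Among myeloid cells the receptor genes of resident macrophages concentrated in the C1q gate. Folr2, the folate receptor beta gene (chr7:101839988-101857194, minus strand), had a UMI in 10.5% of C1q-gated cells, 0.410% of monocyte-gated cells and no dendritic, NK or other myeloid cell, and 98.5% of its myeloid UMIs were in the C1q gate. Cd163, the haptoglobin-haemoglobin scavenger receptor (chr6:124304656-124330527, plus strand), was detected in 6.89% of C1q-gated and 1.23% of monocyte-gated cells. Mrc1, the mannose receptor (chr2:14229392-14332057, plus strand), was found in 48.0% of C1q-gated cells, 32.1% of dendritic-gated cells and 11.5% of monocyte-gated cells. Timd4, a phosphatidylserine receptor (chr11:46810800-46844332, plus strand), did not follow this order, with 3.83% of C1q-gated and 11.1% of the 81 dendritic-gated cells. The dendritic-gated cells were deeper, with a median of 7114 UMIs against 3822 in the C1q gate and 4360.5 in the monocyte gate. Depth favours detection of any gene. Lyve1, the hyaluronan receptor (chr7:110850607-110863239, minus strand), was found in 8.42% of C1q-gated and 13.6% of dendritic-gated cells, but the dendritic gate held 11 of the 26 lymphatic-marker cells, and without them Lyve1 was in 0 of 70 dendritic-gated cells. Mrc1 was then in 21.4% of them, and Timd4 in 12.9%.

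The lectins and the chemokine receptor were spread more widely. Mgl2, a galactose-type lectin also known from dendritic cells (chr11:70130329-70137550, plus strand), had a UMI in 42.6% of C1q-gated cells, 32.1% of dendritic-gated and 7.79% of monocyte-gated cells. Cd207, langerin (chr6:83671215-83677857, minus strand), was found in 9.44% of C1q-gated and 9.88% of dendritic-gated cells and in no monocyte-gated cell. Cx3cr1 (chr9:119901616-120069879, minus strand) was found in 47.2% of C1q-gated, 22.5% of monocyte-gated and 7.41% of dendritic-gated cells. Retnla, a secreted cysteine-rich protein (chr16:48842551-48844461, plus strand), was rare in every gate, in 4.08% of C1q-gated, 6.97% of monocyte-gated and 6.17% of dendritic-gated cells. In 13169 fibroblast-gated cells (median 3672 UMIs, against 3822 in the C1q gate), which should lack the macrophage receptors and lectins, Mgl2, Retnla, Mrc1 and Folr2 had a UMI in 0.167%, 0.137%, 0.0987% and 0.0456%, Cd163, Timd4 and Cd207 in none and Lyve1 in 1.39%. Cx3cr1, in 0.775%, is set apart, since some fibroblast-type cells carried many of its UMIs. Every share named for the C1q gate was above that level, while for Lyve1 the 0.556% of NK-gated cells was below it, as were, without the lymphatic-marker cells, the 0.830% of monocyte-gated cells and 0.787% of other myeloid cells.

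**Figure D1:**
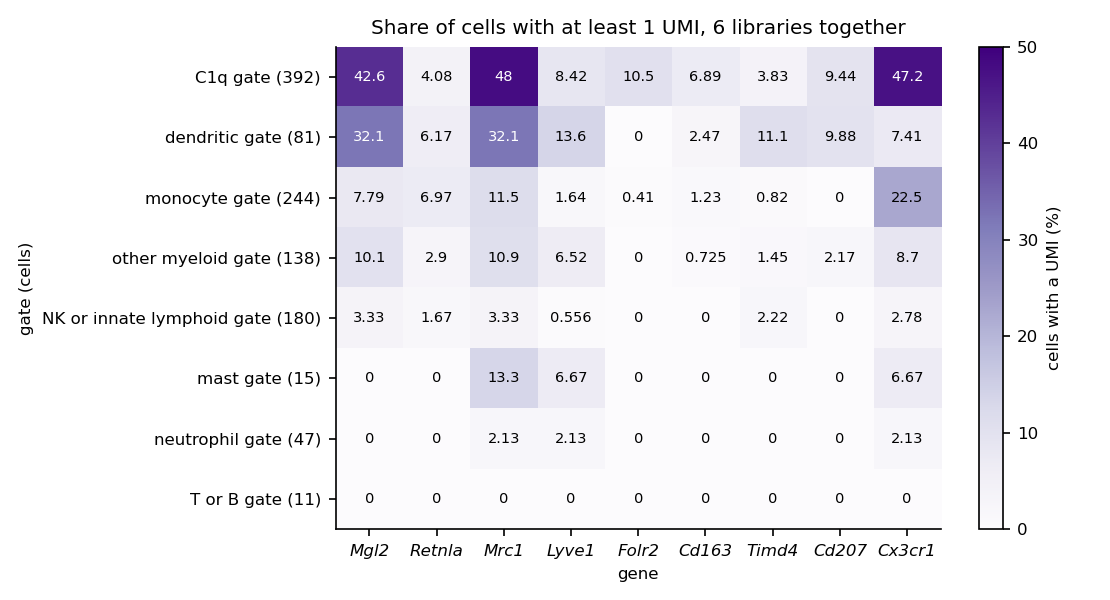
Percentage of cells with at least 1 UMI of each of the 9 genes (columns) in each marker gate (rows), 6 libraries together, colour and printed number both giving the percentage. Mrc1, Cx3cr1 and Mgl2 reach 48.0%, 47.2% and 42.6% in the C1q gate, and Folr2 is found in 10.5% there against 0.410% of the monocyte gate. The 13.6% for Lyve1 in the dendritic gate comes from its 11 lymphatic-marker cells. Gates differ in depth, with a median of 7114 UMIs in the dendritic gate and 3822 in the C1q gate.

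Within each library, the C1q gate was set against the other myeloid cells, with the library as a block (edgeR's quasi-likelihood test with Benjamini-Hochberg adjustment over all genes, 6 libraries). Of 5876 genes 13.5% passed an adjusted p of 0.05, with 6.23% higher in the gate, and 6 of the 9 members were called higher. Of these, Folr2, Cd207 and Cd163 had few UMIs outside the gate and are given below as counts. Levels are given as CPM, the UMIs of a gene scaled to a common total for the cells summed. Cx3cr1 stood at 281, 177 and 804 CPM in the gate of the K/B.g7 libraries and 355, 135 and 283 in that of the B.g7 libraries, against 31.8, 30.6 and 97.4 and 27.3, 43.3 and 33.3 in the other myeloid cells of the same libraries. The 2 sets of cells did not overlap, and the log2 difference was 2.82 ± 0.23 (SE, adjusted p = 1.10e-05). Mrc1 was likewise higher in the gate of every library, at 761, 136 and 416 and 765, 91.7 and 296 CPM, against 95.3, 65.6 and 85.5 and 47.7, 28.9 and 52.0 outside it (log2 difference 2.35 ± 0.30, adjusted p = 2.29e-04).

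Folr2 was nearly confined to the gate, with 2 UMIs outside it, both in the K/B.g7 library at 8 weeks. Inside it there were 65, 16 and 3 UMIs in K/B.g7 and 9, 3 and 32 in B.g7. It entered the fit only through the gate side, so its counts are a description with no fold or p. Cd207 had 0, 21 and 0 UMIs outside the gate in the K/B.g7 libraries and 10, 6 and 3 in the B.g7 libraries. Inside it there were 45, 41 and 0 in K/B.g7 and 9, 83 and 87 in B.g7, so the K/B.g7 library at 25 weeks had none on either side. It was called higher, mainly through the gate side, and is given with no fold or p. Cd163 had 0, 2 and 1 UMIs outside the gate in K/B.g7 and 0, 0 and 4 in B.g7. Inside it there were 19, 2 and 7 in K/B.g7 and 4, 0 and 11 in B.g7. It was called higher, mainly through the gate side, but not with either library at 25 weeks left out. Mgl2 differed least of those that passed (1.23 ± 0.25, adjusted p = 0.00640). Its levels were 761, 187 and 409 and 860, 227 and 315 CPM in the gate against 635, 88.2 and 183 and 252, 37.1 and 229 outside it, so cells outside the gate carried much of it too.

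Retnla and Timd4 did not pass: the log2 differences were -0.68 ± 1.16 (adjusted p = 0.785) and 0.16 ± 0.61 (adjusted p = 0.915), and that of Timd4 changed sign with some libraries or the lymphatic-marker cells left out. Lyve1 turned on those 26 cells. They held 419 of its 487 myeloid UMIs (86.0%), and its difference was -1.92 ± 0.60 with them (adjusted p = 0.0509) and 2.67 ± 0.79 without them (adjusted p = 0.0391, where 14.7% of 5585 genes passed, with 6.95% higher). Without those cells few Lyve1 UMIs lay outside the gate, so the latter value rests on the gate side. The 26 cells held 6.02% of the Mrc1 UMIs and none of those of the other 7 genes. Without them the log2 differences were 2.55 for Cx3cr1, 2.44 for Mrc1 and 0.92 for Mgl2. Each was still past the threshold, with the highest adjusted p, 0.0257, for Mgl2. Folr2, Cd207 and Cd163 were called again, mainly through the gate side. The differences of Retnla and Timd4 were -0.95 and -0.16, which did not pass.

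Other genes of resident macrophages, from a list that leaves the members out, moved the same way across the gate. Of 17 tested, 13 were higher and 0 lower, among them Pf4, a platelet-factor chemokine (log2 difference 6.38), and Ccl8, a monocyte-attracting chemokine. Ccl8 averaged 1350 CPM in the gate and 1.25 outside it, mainly through the libraries at 8 weeks. No C1q-gated cell of B.g7 had it at 3 or 25 weeks. Of 15 tested genes of the IL-4 and IL-13 response, Ccl24 was higher (2.33) and Chil3, Ccl17 and Clec10a were lower (-2.31, -1.62 and -1.30). Of 14 monocyte and inflammatory genes, Tnf and Cxcl2 were higher (2.51 and 2.78) and 6 were lower. Genes with the strongest changes outside these lists were the surface gene Ms4a7 and Cxcl13 on the higher side and the NK genes Gzma and Xcl1 on the lower side. The NK cells were among those outside the gate. Cxcl13 averaged 168 CPM in the gate and 1.22 outside it, Gzma 0.165 and 732, and Xcl1 0 and 239.

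Per library, the 9 genes took different courses over age. Mrc1 stood at 514, 95.7 and 170 CPM of the myeloid sum in the K/B.g7 libraries at 3, 8 and 25 weeks, and at 287, 56.1 and 146 in the B.g7 libraries. Mgl2 stood at 715, 130 and 241 in K/B.g7 and 455, 119 and 262 in B.g7. Both genes were highest at 3 weeks and lowest at 8 weeks in both genotypes. A lower level in such sums can come from fewer cells carrying a gene or from fewer transcripts in each, which the sums alone cannot tell apart. Mrc1 had a UMI in 49.4%, 20.1% and 21.9% of K/B.g7 myeloid cells and 41.8%, 14.9% and 27.2% of B.g7 ones, and Mgl2 in 48.1%, 14.5% and 15.9% and in 43.6%, 16.2% and 28.3%, so the share of cells was lower at 8 weeks as well. The exact 95% binomial intervals of the Mrc1 shares at 8 and 3 weeks did not meet. They were 16.4% to 24.3% at 8 weeks against 37.8% to 61.0% at 3 weeks in K/B.g7. In B.g7 they were 9.56% to 21.6% against 28.7% to 55.9%. Such intervals cover the sampling of cells within a library and not the spread between libraries or mice. They are therefore no test of an age difference.

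Folr2 had 255, 7.55 and 5.31 CPM in K/B.g7 libraries and 40.9, 3.51 and 40.7 in B.g7 libraries. Cd163 had 74.6, 1.68 and 14.1 in K/B.g7 libraries and 18.2, 0 and 19.1 in B.g7 libraries. Both were thinly counted, with 130 and 50 UMIs in all, and both were lowest at 8 weeks in B.g7. The 3 and 32 UMIs of Folr2 at 25 weeks give exact 95% Poisson intervals of 1.09 to 15.5 CPM in K/B.g7 and 27.9 to 57.5 CPM in B.g7. Without the lymphatic-marker cells, Lyve1 stood at 98.1, 2.58 and 12.3 CPM in K/B.g7 libraries and 92.7, 8.22 and 14.0 in B.g7 libraries. With those cells it read 98.1, 28.5 and 230 and 464, 24.5 and 179, so what the summed level shows for Lyve1 at 25 weeks is mostly those cells. Timd4 rested on 10, 9 and 1 UMIs in K/B.g7 and 11, 7 and 25 in B.g7, which are 39.3, 3.78 and 1.77 and 50.03, 8.18 and 31.8 CPM.

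Cd207 had 177, 26.02 and 0 CPM in K/B.g7 libraries and 86.4, 104 and 115 in B.g7 libraries. K/B.g7 was above B.g7 at 3 weeks and below it at 8 and 25 weeks, and at 25 weeks the K/B.g7 library had 0 UMIs against 90 in B.g7. Against a floor of 3 counts in the library, which covers counting error only, that is at least 21.6-fold lower in K/B.g7. A count of 0 allows up to 5.31 CPM there on that floor. Of the 90 UMIs in B.g7, 42 were in 1 of the 10 cells with the gene. Cx3cr1 was lowest at 8 weeks in both genotypes. It stood at 188, 92.7 and 278 in K/B.g7 libraries and 136, 82.98 and 130 in B.g7 libraries, with the K/B.g7 library above the B.g7 one at each age. That order turned at 3 weeks without the lymphatic-marker cells, at 188 CPM for K/B.g7 and 199 CPM for B.g7, and in the C1q gate, at 281 against 355. Retnla had 1928, 483 and 424 in K/B.g7 libraries and 5226, 160 and 5935 in B.g7 libraries, with no common order of the genotypes. The 26 cells weigh most on the B.g7 library at 3 weeks. Without them its levels were 662 CPM for Mgl2, 411 for Mrc1, 59.6 for Folr2, 26.5 for Cd163, 72.8 for Timd4, 126 for Cd207, 199 for Cx3cr1 and 7609 for Retnla, each higher than with them. In the K/B.g7 library at 25 weeks they were 278 for Mgl2, 160 for Mrc1, 321 for Cx3cr1 and 491 for Retnla.

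**Figure D2:**
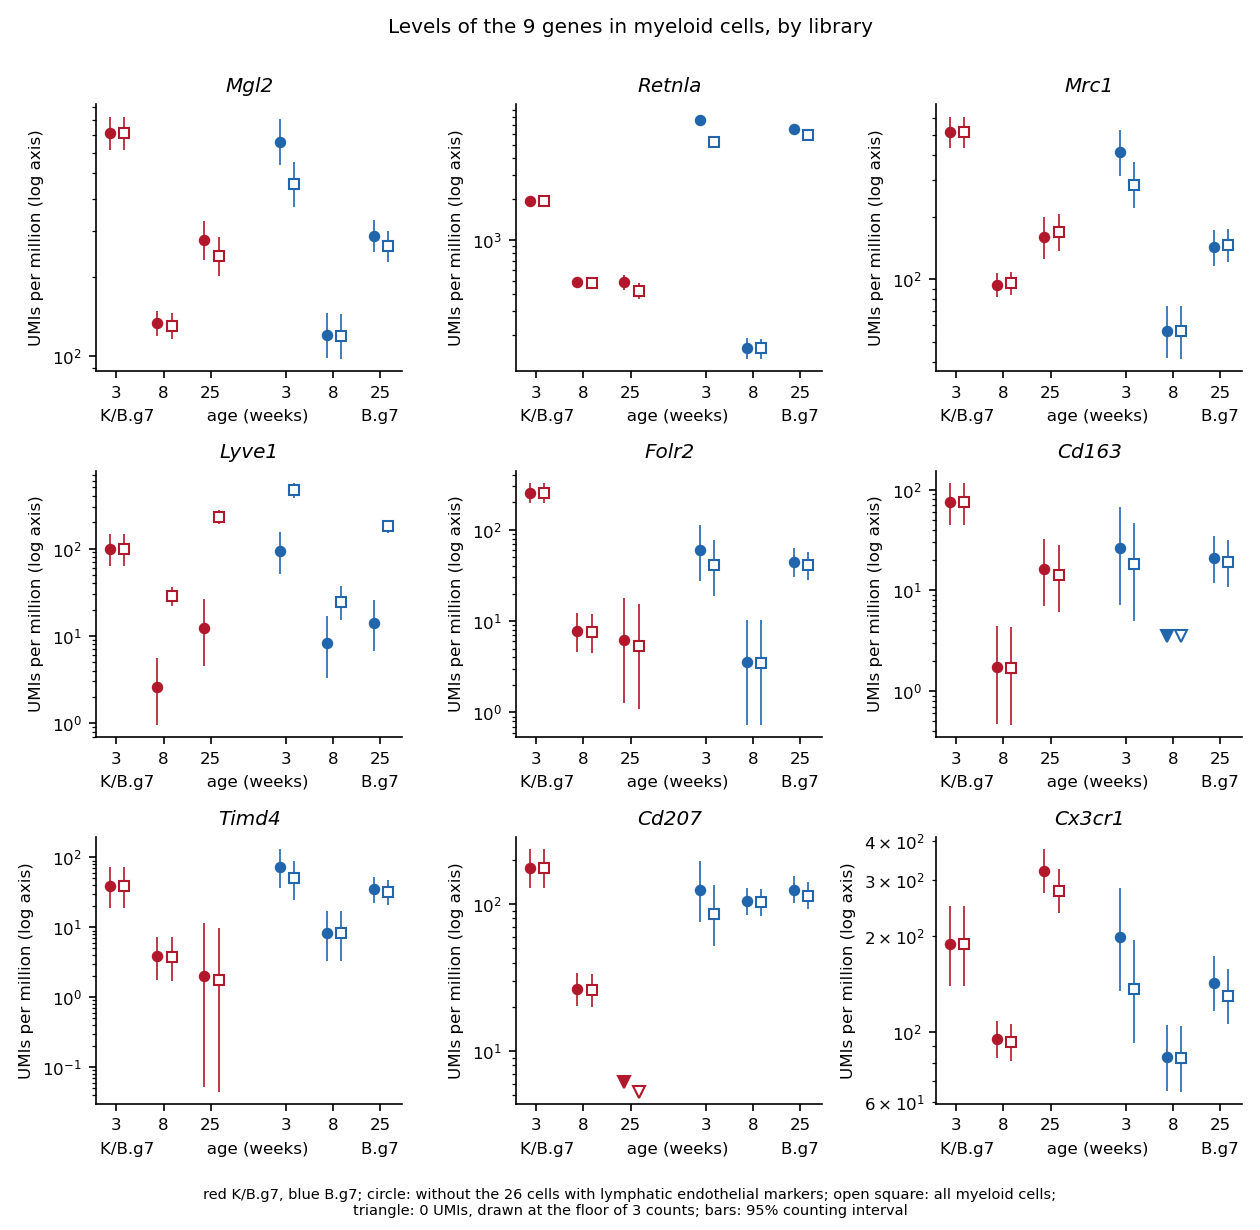
Level of each gene in summed myeloid cells (CPM, log axis) by age in weeks, 1 panel a gene, K/B.g7 libraries left and B.g7 libraries right, with bars giving 95% Poisson intervals of the counts. Mrc1 and Mgl2 are lowest at 8 weeks in both genotypes, and Cd207 has 0 UMIs in K/B.g7 at 25 weeks against 115 CPM in B.g7.

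K/B.g7 was set against B.g7 with age as an additive term, 3 libraries of each. None of the 7177 genes tested passed an adjusted p of 0.05 by edgeR (0%), with 228 at an unadjusted p under 0.05 and 3 called by DESeq2, and no member passed. The log2 differences with their SE were -1.78 ± 1.05 for Cd207, -1.53 ± 0.67 for Timd4, -1.34 ± 1.03 for Retnla, -0.60 ± 0.50 for Lyve1, 0.12 ± 0.30 for Mgl2, 0.45 ± 0.96 for Folr2, 0.48 ± 0.29 for Cx3cr1, 0.51 ± 0.29 for Mrc1 and 0.76 ± 0.73 for Cd163, each with an adjusted p of 1. With the 26 lymphatic-marker cells left out, 33 of 6366 genes passed (0.518%), and again none of the 9 did: Timd4 differed by -1.69 ± 0.55 (adjusted p = 0.386), Cd207 by -1.81 ± 0.66 (0.509) and Retnla by -1.62 ± 0.82 (0.758). At 2 residual degrees of freedom from 6 libraries, these intervals are wide, and a missed threshold does not show that the genotypes are alike.

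In the C1q gate alone, 11 of 3423 genes differed between K/B.g7 and B.g7 (0.321%) and none of the 8 members tested did. Among the 11, the histone gene Hist1h2ap, Serping1, a complement inhibitor, and Timp3, an inhibitor of matrix proteases, were higher in K/B.g7. Their levels averaged 103, 113 and 91.6 CPM there, while those of B.g7 averaged 4.89, 9.27 and 10.8. Serpinb2 was lower, with K/B.g7 averaging 5.27 CPM and B.g7 95.7. These genes had few counts on the lower side, so no fold is given for them. Cxcl13, a B cell chemokine (log2 difference 3.01), and Lum, a matrix gene of fibroblasts (2.29, at 177 against 36.4 CPM), were also higher in K/B.g7. Clec4b1 was lower (-1.80). The matrix gene Dcn had a UMI in 197 of the 376 C1q-gated cells without Retnla. Whether Lum, Timp3 and Serping1 came from the gated cells themselves or from fibroblast RNA among them was not tested. Mgl2 differed by -0.12, Mrc1 by 0.26, Lyve1 by -0.16, Folr2 by 0.25 and Cd163 by 0.75. Cx3cr1 differed by 0.50 ± 0.33 (adjusted p = 0.841), with 281, 177 and 804 CPM in K/B.g7 and 355, 135 and 283 in B.g7. Cd207 had 281, 40.5 and 0 in K/B.g7 and 123, 224 and 286 in B.g7 (-1.84 ± 0.75, unadjusted p = 0.0301, adjusted p = 0.621). None of the resident, IL-4 and IL-13 response or monocyte and inflammatory lists had a gene called, and their median log2 differences were -0.0043, 0.40 and -0.76 beside 0.01 over all genes. With age left out of the model as a block, 0 genes passed in the gate (edgeR).

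The contrast of 8 against 3 weeks was the age term of the same model, with 2 libraries at each age, 1 of each genotype. By edgeR on all myeloid cells 0 of 7177 genes passed (0%), with 768 at an unadjusted p under 0.05. All 9 members had a negative log2 difference, from -5.14 for Cd163, with 4 and 0 UMIs at 8 weeks in K/B.g7 and B.g7, to -0.72 for Cx3cr1. The lowest adjusted p of a member was 0.0963, for Mrc1. DESeq2 called 102 of 4255 genes on the same sums (2.4%, with 0.588% lower), among them 4 members that fell: Mrc1 (-2.25, adjusted p = 5.93e-04), Mgl2 (-2.08, 0.00108), Lyve1 (-3.01, 0.00135) and Folr2. Folr2 had 18 and 3 UMIs at 8 weeks in K/B.g7 and B.g7, so it is given with no fold or p.

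Leaving cells of other lineages out brought these 4 and others past the threshold in edgeR. With the NK and mast gates and cells with markers of other lineages left out, 174 of 4947 genes passed (3.52%, with 1.17% lower), and 6 members fell: Mgl2, Mrc1, Lyve1, Folr2, Cd163 and Timd4. With the 26 lymphatic-marker cells left out instead, 169 of 6366 passed (2.65%, with 1.02% lower), and the same 6 fell. In that fit Mrc1 differed by -2.53 ± 0.32 (adjusted p = 0.00118) and Mgl2 by -2.34 ± 0.30 (0.00119). Lyve1, Folr2, Cd163 and Timd4 had 6, 18, 4 and 9 UMIs at 8 weeks in K/B.g7 and 7, 3, 0 and 7 in B.g7. At 3 weeks they had 25, 65, 19 and 10 and 14, 9, 4 and 11, in smaller sums. They entered the fit mainly through the other ages, so these counts are given with no fold or p. Retnla (-2.95 ± 0.90, 0.120), Cd207 (-1.66, 0.347) and Cx3cr1 (-1.01, 0.187) did not pass.

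Of these 6 genes, 5 were also lower at 8 weeks among C1q-gated cells alone, where the mix of myeloid kinds is narrower. There 226 of 3423 genes passed (6.6%, with 1.96% lower), and 5 of the 8 members tested fell. Mrc1 stood at 761, 136 and 416 CPM of gated cells in K/B.g7 and 765, 91.7 and 296 in B.g7 at 3, 8 and 25 weeks, and its log2 difference at 8 weeks was -2.57 ± 0.32 (adjusted p = 8.08e-04). Lyve1 stood at 156, 3.95 and 34.6 and at 191, 2.70 and 32.9. Mgl2 stood at 761, 187 and 409 and at 860, 227 and 315 (-1.80 ± 0.31, adjusted p = 0.00484). In each of these 3 genes the levels at 8 weeks lay below those at 3 weeks in both genotypes, and the levels at 25 weeks lay between.

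Folr2 and Cd163 were called lower as well. Folr2 stood at 406, 15.8 and 20.8 CPM in K/B.g7 and 123, 8.09 and 105 in B.g7, so at 25 weeks its level was near that of 8 weeks in K/B.g7 and near that of 3 weeks in B.g7. Cd163 stood at 119, 1.98 and 48.5 in K/B.g7 and 54.6, 0 and 36.1 in B.g7. The levels at 8 weeks rest on few UMIs, 4 and 1 of Lyve1, 16 and 3 of Folr2, and 2 and 0 of Cd163 in K/B.g7 and B.g7. Lyve1, Folr2 and Cd163 entered the fit mainly through the other ages, so no fold or p is given for them. Cd207 (-1.30, 0.458) and Cx3cr1 (-0.85, 0.303) did not pass, and Retnla, at 1.83 ± 2.58 (0.772), was on the other side of 0. Timd4 was too low to be tested in the gate.

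The lower shares at 8 weeks were also there with each cell thinned to 1000 UMIs, so that cells of unequal depth can be compared, which left out 1, 8 and 2 shallower C1q-gated cells of the K/B.g7 libraries and 2, 4 and 2 of the B.g7 libraries. Of C1q-gated cells, Mrc1 then had a UMI in 41.3%, 12.9% and 31.6% in K/B.g7 aged 3, 8 and 25 weeks and 58.3%, 10.9% and 20% in B.g7, and without thinning in 74.5%, 33.1% and 64.4% and in 73.1%, 32.0% and 50%. Mgl2 had one in 37.0%, 15.7% and 31.6% in K/B.g7 and 37.5%, 21.7% and 30% in B.g7 after thinning, against 68.1%, 26.4% and 39.0% and 65.4%, 36.0% and 61.3% before it. Thinned Lyve1 was found in 13.04%, 0% and 1.75% in K/B.g7 and 20.8%, 0% and 1.67% in B.g7. The 8-week libraries, whose myeloid cells were the deepest of each genotype, thus had the smallest share of cells with each of these genes.

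Other resident macrophage genes moved with them. Of 19 listed genes tested in the C1q gate, 10 fell and 1 rose at 8 weeks, with a median log2 difference of -2.07 beside 0.01 over all genes. The list holds C1qa, C1qb and C1qc, on which the gate itself was chosen. In the fit of all myeloid cells without the lymphatic-marker cells, 10 of 20 fell and 1 rose (median -1.99), among them Cbr2, a carbonyl reductase of resident macrophages (-5.65, adjusted p = 4.99e-04), Pf4 (-3.08), Gas6, a bridging ligand in the uptake of dying cells (-3.01), and Maf, a transcription factor of resident macrophages (-2.72). The one that rose was Ccl8, given with no fold, since no C1q-gated cell of B.g7 had it at 3 weeks. Of 7 tested IL-4 and IL-13 response genes in the gate, Tgm2, a transglutaminase, rose and none fell (median 0.64). Of 10 monocyte and inflammatory genes in the gate 3 rose (median 0.81). In all myeloid cells without the lymphatic-marker cells Ly6c2, which marks classical monocytes, and Spp1, osteopontin, were the 2 that rose: Ly6c2 averaged 136 CPM at 8 weeks and had no UMI at 3 weeks, and Spp1 rose by 2.61.

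**Figure D3:**
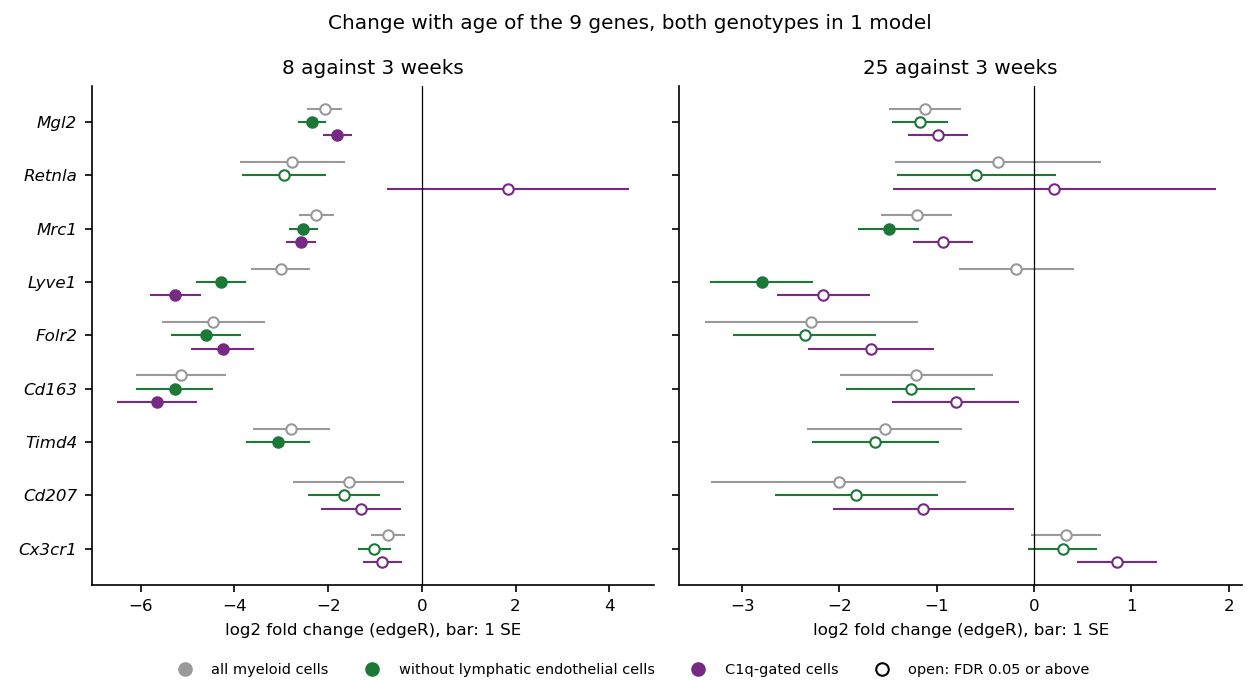
Log2 difference of 8 weeks and of 25 weeks against 3 weeks (horizontal axis, bars 1 SE) for each member under several choices of cells and tests. Mrc1, Mgl2, Lyve1, Folr2 and Cd163 lie below 0 at 8 weeks under each choice, with Mrc1 at -2.25 over all myeloid cells and -2.57 in the C1q gate alone.

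At 25 against 3 weeks less was called. By edgeR on all myeloid cells 0 of 7177 genes passed (0%), with 539 at an unadjusted p under 0.05, and DESeq2 called 42 of 3698 (1.14%), none of them a member. Mrc1 differed by -1.21 and Mgl2 by -1.12, with unadjusted p of 0.0121 and 0.0184. Without the 26 lymphatic-marker cells 102 of 6366 passed (1.6%, with 0.141% lower), and 2 members fell, Lyve1 and Mrc1. Lyve1 had 6 and 10 UMIs at 25 weeks in K/B.g7 and B.g7, so it is given with no fold or p. Mrc1 differed by -1.49 ± 0.31 (adjusted p = 0.0357). Mgl2 (-1.18 ± 0.29, 0.0700) and Folr2 (-2.36, 0.168) did not pass. In the C1q gate alone 38 of 3423 passed (1.11%) and no member did. Lyve1 came nearest (adjusted p = 0.0564), on 5 and 10 UMIs at 25 weeks in K/B.g7 and B.g7. Cx3cr1 differed by 0.33 in all myeloid cells and by 0.85 in the gate (adjusted p = 0.493), with 804 CPM in the gate of the K/B.g7 library, and over all myeloid cells the B.g7 libraries alone gave -0.07.

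A few cells carried nearly all of the Retnla. In the myeloid cells 45 had any Retnla, 40 of them had at least 5 UMIs, and these 40 held 7821 of 7829 UMIs (99.9%). Cells with at least 5 UMIs held 82.0% of the Cd207 UMIs (22 cells), and the 5 highest cells held 44.4% of Retnla and 36.7% of Cd207, so this trait is not particular to Retnla. For Lyve1 these shares were 84.4% (19 cells) and 53.0%, but the lymphatic-marker cells held 419 of its 487 UMIs, and no C1q-gated cell had more than 5. The highest Retnla cell had 940 UMIs, and Retnla was 1.88% of all UMIs in the median cell of the 40 and 7.58% in the highest. There were 5, 6 and 4 such cells in the K/B.g7 libraries at 3, 8 and 25 weeks and 7, 3 and 15 in the B.g7 libraries, or 0.873, 0.644 and 0.199 and 1.85, 0.520 and 1.71 per 1000 kept cells. Their median Retnla count was 70.0, 188.5 and 60.0 UMIs in K/B.g7 and 89.0, 11 and 204 in B.g7. The summed level of Retnla in a library thus rests on 3 to 15 cells, and the counting intervals of its UMIs do not cover the chance of catching such a cell.

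**Figure D4:**
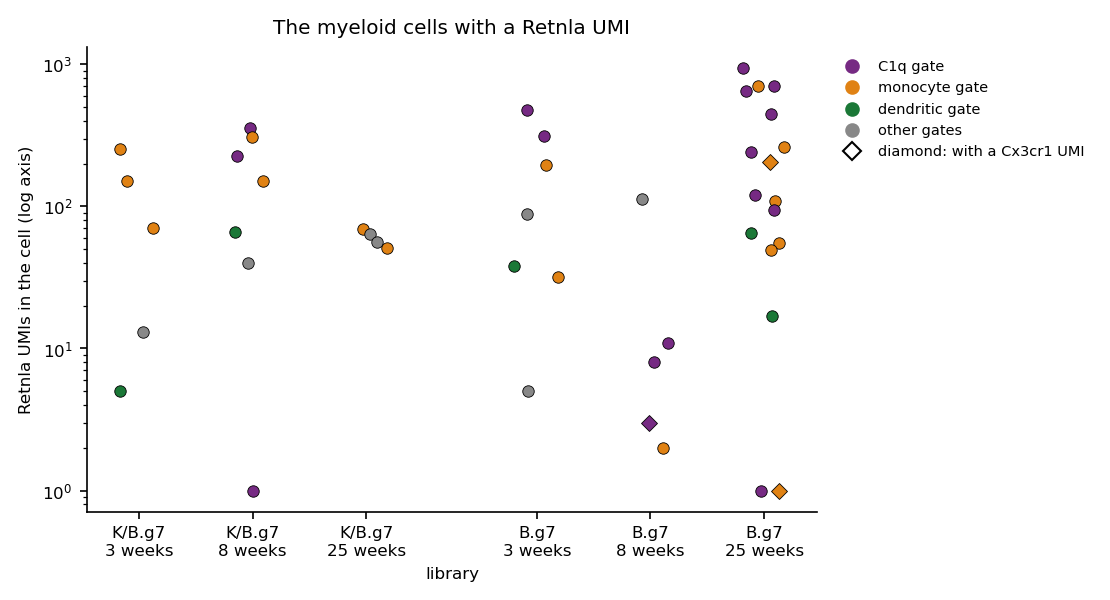
Retnla UMIs (log axis) in each myeloid cell with at least 1, by age in weeks, K/B.g7 libraries left and B.g7 libraries right, 1 point a cell. The highest cell, in B.g7 at 25 weeks, has 940 UMIs, and cells with at least 5 UMIs number 5, 6 and 4 in K/B.g7 and 7, 3 and 15 in B.g7.

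The 40 cells were not mostly C1q-gated: 0, 2 and 0 were in K/B.g7 and 2, 2 and 7 in B.g7, and the monocyte gate held 3, 2 and 2 and 2, 0 and 6. All 40 had Lyz2, the lysozyme of myeloid cells, and H2-Ab1, an MHC class II chain. Ccr2, the monocyte chemokine receptor, was in 36, Fn1, fibronectin, in 35, Lpl, lipoprotein lipase, in 31 and Ear2, an eosinophil-associated ribonuclease, in 30. Ear2 stood at 605 CPM there, against 2.05 in the 376 C1q-gated cells without Retnla and 93.3 in the 227 monocyte-gated cells without it. None of the 40 had Ly6c2. Of the other members, Mgl2 was in 27 and Mrc1 in 25, Cd163 in 4, Folr2 in 2, Cx3cr1 and Timd4 in 1 each, and Lyve1 and Cd207 in none. The 40 cells were deeper (median 7200 UMIs) than C1q-gated cells without Retnla (3801), which favours detection in them of any gene.

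In the C1q gate Retnla had 0, 583 and 0 UMIs in the K/B.g7 libraries and 791, 22 and 3201 in the B.g7 libraries, carried by 0, 3 and 0 cells and by 2, 3 and 8. With 0 UMIs replaced by a floor of 3 counts per library, it was at least 577-fold lower in K/B.g7 at 3 weeks and at least 506-fold lower at 25 weeks, and it was higher in K/B.g7 at 8 weeks. Across ages Retnla in the gate gave a log2 difference of -6.38 ± 2.69 (unadjusted p = 0.0358, adjusted p = 0.634), which did not pass and rests on the same few cells.

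Cells within the C1q gate were then split by whether a member was detected, and the 2 sides were compared within libraries with the library as a block. Cx3cr1-detected cells were set against Cx3cr1-undetected ones, and 27 of 2505 genes passed (1.08%, with 0.758% lower). Retnla had 3 UMIs in Cx3cr1-detected cells, all in B.g7 at 8 weeks, against 0, 583 and 0 in the undetected cells of K/B.g7 and 791, 19 and 3201 in those of B.g7. It was called lower, but it entered the fit only through the undetected side, had no UMI on either side in 2 libraries and rests on few cells, so its counts are given as a description with no fold or p. Of 16 C1q-gated cells with Retnla, 1 had Cx3cr1, where detection unrelated within libraries would give 7.73.

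Genes higher with Cx3cr1 were Rab3il1 (1.61), Smagp (1.51), Ms4a7 (1.44), Hpgd, a prostaglandin dehydrogenase (1.17), and the chemokine Ccl4 (1.16). Serpinb2, Ear2, Lyz1, Ccl17 and Fn1 were among the lower ones. All but Fn1 were near absent from Cx3cr1-detected cells, so levels are given with no fold. Serpinb2 averaged 0 against 92.5 CPM, Ear2 0.383 against 160, Lyz1 7.53 against 232 and Ccl17 3.96 against 85.2. Ear2 stood at 2.05 CPM in C1q-gated cells without Retnla, so its level lay mostly in the few cells with Retnla. Folr2 (1.36 ± 0.42, adjusted p = 0.145) and Mrc1 (0.52, adjusted p = 0.307) did not pass. Cx3cr1-detected cells had the higher median UMI count in every library, and the count of 27 became 2 without the B.g7 library at 25 weeks, 12 without the K/B.g7 library at 25 weeks and 16 without the B.g7 library at 8 weeks. In thinned cells 0 genes passed (edgeR).

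Cells with Retnla or Mgl2 were compared with C1q-gated cells without either in 5 libraries, since the B.g7 library at 3 weeks had 9 cells on one side. Of 2276 genes 7 passed (0.308%) and no other member did. Lyz1 (3.23) and Igfbp7 (1.60) were higher, and Plac8, Serpinb2, Slpi, Ccl5 (-3.41) and Lgals3, galectin-3 (-1.22), were lower. Plac8, Serpinb2 and Slpi averaged 0, 0 and 1.36 CPM in the cells with Retnla or Mgl2, so they are given without a fold. Between 1 and 18 genes passed as single libraries were left out, and 0 passed in thinned cells (edgeR).

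Pairs of members in single C1q-gated cells showed which receptors came together. Lyve1 and Folr2 were both detected in 19 of 392 cells, where shares multiplied within each library would give 6.76. Folr2 and Cd163 were together in 16, against 5.64, Lyve1 and Cd163 in 12, against 4.79, and Lyve1 and Timd4 in 6, against 2.41. Mgl2 met Lyve1 in 26 cells, against 18.9, and Mrc1 met Cd163 in 26, against 17.4. Mgl2 and Retnla came together in 9 cells, close to the 8.08 given by their shares, and Lyve1 and Cd207 in 1, against 3.44. These counts carry no test, and deeper cells raise all pairs. Cells with any of Lyve1, Folr2, Cd163 or Timd4 were 51.1%, 6.76% and 15.3% of C1q-gated cells in K/B.g7 aged 3, 8 and 25 weeks and 30.8%, 10.0% and 24.2% in B.g7, or 24, 10 and 9 cells and 8, 5 and 15.

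Over 25 sums of 1 gate in 1 library, each member's log level was closest in Pearson's r to a few other genes. The closest to Cx3cr1 was Adgre1, the F4/80 gene of mouse macrophages (r = 0.90), and to Mrc1 it was Plau, the urokinase gene (0.89). Folr2 was closest to Pf4 (0.88), Mgl2 to Tnfsf9 (0.84), Retnla to Lyz1 (0.83) and Cd207 to Hpgds, a prostaglandin D synthase (0.80). Lyve1 was closest to the endothelial genes Egfl7, Igfbp4 and Cldn5 (0.88, 0.87 and 0.86). The 25 sums share 6 libraries and 6 gates of unequal depth, so these are descriptions without a test. Cd163 and Timd4 were too low for a measure.

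Near relatives of the members lie close in the genome. Clec10a, the galactose-type lectin gene closest to Mgl2, is 18.6 kb from it, and Retnlb and Retnlg, of the same family as Retnla, are 23.7 and 28.2 kb from Retnla. No 50-base stretch was shared in the last 500 transcript bases of these pairs, from which reads near the end of transcripts come.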

How the data were processed

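The authors deposited whole-number UMI counts per gene and cell barcode for 6 libraries, made with Cell Ranger 3.1.0 on mm10, per the submitters' processing notes. A barcode was kept where it held 500 UMIs or more from 300 genes or more, with no more than 10% of them mitochondrial, which gave 53526 cells. The members, gates and gene lists were chosen with earlier results of these data known. No doublet caller was run, and leaving out cells with markers of other lineages was an alternative. Leaving out cells with at least 3 lymphatic endothelial UMIs, and fitting the age contrasts in C1q-gated cells alone, were chosen after seeing the data.

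Counts summed per library were tested with edgeR 4.0.16 (quasi-likelihood, TMM, filterByExpr, adjusted p under 0.05 over all genes), with sums of at least 10 cells and DESeq2 1.42.0 as an alternative, in R 4.3.3. Every test is two-sided. SE is the log2 difference divided by the square root of F. Libraries of 1 age were blocked by the age their labels share. The deviations of the 2 libraries of 1 age from their genotype means correlated at 0.0593, 0.405 and 0.225 over 6331 genes at 3, 8 and 25 weeks. The replicates are libraries of different ages, so p-values measure the spread between these libraries, part of which may be technical. Intervals and floors cover counting error only. Levels are CPM of the cells summed. Named genes outside the lists were the 5 largest changes each way among those called at 50 CPM or more, leaving out mitochondrial, ribosomal, haemoglobin, immunoglobulin and sex-linked genes. The fits were tested on simulated counts. Gene positions are from GENCODE vM21 on mm10, and promoters, found for 8 of the 9 members, from RefSeq.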

Additional observations from a re-analysis of the deposited data

Results flagged for a closer look

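In 4 genes the ratio of K/B.g7 over B.g7 in summed levels lay above 1 at one age and below 1 at another with exact 95% counting intervals that left out 1 at both ages. Ratios of other members also crossed 1 with an interval that held 1 at one or more ages, among them Mgl2 (1.57 at 3 weeks and 0.917 at 25 weeks) and Cd163 (4.10 and 0.741) in all myeloid cells and Cx3cr1 (0.791 and 2.84) in the C1q gate. Each age has 1 library of each genotype, and the difference between ages was not tested. Retnla in all myeloid cells had ratios of 0.369 at 3 weeks, 3.01 at 8 weeks and 0.0715 at 25 weeks. Without the cells with lymphatic endothelial markers these were 0.253, 3.07 and 0.0752. In the C1q gate they were at most 0.00173 at 3 weeks, 9.71 at 8 weeks and at most 0.00198 at 25 weeks, with 0, 3 and 0 K/B.g7 cells and 2, 3 and 8 B.g7 cells carrying the gene. Those bounds, from a floor of 3 counts, cover counting error only and not the chance of catching such a cell.

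Folr2 had ratios of 6.23 at 3 weeks and 0.130 at 25 weeks in all myeloid cells, 4.28 and 0.137 without the lymphatic-marker cells, and 3.30 and 0.198 in the C1q gate. It rested on 65 UMIs from K/B.g7 against 9 from B.g7 at 3 weeks, and on 3 against 32 at 25 weeks. Cd207 had ratios of 2.04 at 3 weeks, 0.2501 at 8 weeks and at most 0.0463 at 25 weeks in all myeloid cells, and 2.28, 0.181 and at most 0.0727 in the C1q gate. Without the lymphatic-marker cells its ratio at 3 weeks was 1.40, with an interval of 0.805 to 2.54, so the crossing no longer met that condition. Lyve1 had ratios of 0.212 at 3 weeks and 1.28 at 25 weeks in all myeloid cells. The B.g7 library at 3 weeks had 88 of its 102 Lyve1 UMIs in the 1 cell with lymphatic endothelial markers. Without those cells the Lyve1 ratios were 1.06 (interval 0.530 to 2.20) at 3 weeks and 0.876 (0.262 to 2.66) at 25 weeks, and the pattern was gone.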

How the results depend on the processing

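The counts of called genes moved with the choice of cells, filter and test. Against 0 genes called between K/B.g7 and B.g7 in myeloid cells, DESeq2 called 3, no low-count filter 78, other lineages left out 16, lymphatic-marker cells left out 33, no replicate block 0, and leaving out 1 age 0 to 93. At 25 against 3 weeks the same first 4 choices called 42, 152, 39 and 102, and C1q-gated cells alone 38. At 8 against 3 weeks they called 102, 373, 174 and 169, C1q-gated cells alone 226, no barcode filter 8, and Tyrobp and Fcer1g at 4 UMIs or more 25. Between genotypes in the C1q gate (11), RLE size factors gave 7, DESeq2 3, no filter 72, no replicate block 0, and leaving out 1 age 1 to 71. Across the C1q gate (792), no filter gave 1229, thinned cells 273, and leaving out 1 library 452 to 713. For the Retnla or Mgl2 split (7), DESeq2 gave 2, no filter 50, thinned cells 0, 20 cells a side 18, and 1 library out 1 to 18. For the Cx3cr1 split (27), no filter gave 146, 6 C1q UMIs 17, thinned cells 0, 20 cells a side 16, and 1 library out 2 to 39. The causes were not tested. A Lyve1 split could not be fitted, since 1 library had 10 cells on both sides.

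With 1 age left out the difference in the myeloid share ran from -0.463 to 0.926 percentage points and that in the C1q share from -4.61 to 7.53, and other lineages left out turned the C1q one to -3.53. Among members, 33 values changed sign. Between genotypes in myeloid cells, Mgl2 became -0.085 without other lineages and -0.026 without lymphatic-marker cells. With 1 age left out, Mgl2 ran from -0.16 to 0.35, Retnla from -2.68 to 0.017, Lyve1 from -1.08 to 0.13 and Cd163 from -0.19 to 2.18, and in the C1q gate Mgl2 ran from -0.29 to 0.058 and Lyve1 from -0.22 to 0.059. In C1q-gated cells alone, Retnla became 0.21 at 25 weeks and 1.83 at 8 weeks. In K/B.g7 alone and B.g7 alone, Cd207 gave -2.76 and 0.27 at 8 weeks. At 25 weeks Retnla gave -2.18 and 0.18, Lyve1 1.23 and -1.37, Cd163 -2.40 and 0.070, and Cx3cr1 0.56 and -0.072 in the same order, and Cd207 gave 0.41 in B.g7. Across the C1q gate, Lyve1 became 2.67 and Timd4 -0.16 without lymphatic-marker cells, and Timd4 -0.36 at 6 C1q UMIs. With 1 library left out Timd4 ran from -0.17 to 0.53 and Retnla from -1.62 to 0.28. In the Retnla or Mgl2 split, Cd207 became 0.096 under DESeq2 and 0.87 at 20 cells a side, and Folr2 became -0.57 there. With 1 library left out, Cd207 ran from -0.78 to 0.87, Folr2 from -0.57 to 0.74, Mrc1 from -0.0027 to 0.34, Cd163 from -0.046 to 0.0024 and Cx3cr1 from -0.026 to 0.53, and in the Cx3cr1 split Mgl2 ran from -0.036 to 0.64. Of the members' other values 485 kept their direction and side of the threshold, 44 came to pass it and 3 no longer did.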

Other observations

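Outside the myeloid cells, Cx3cr1 was concentrated in few cells. Of its UMIs 77.5% lay there, 2167 UMIs in 501 cells, and 136 of those cells had at least 5 UMIs, up to 87. Of the 136, 135 had Dcn, the decorin gene of fibroblasts, and 128 had neither Tyrobp nor Fcer1g. Most cells outside the rule were like this, with 48763 of 52418 having Dcn and neither adaptor gene. The fibroblast gate held 16.9% of all Cx3cr1 UMIs, and cells outside the rule in no gate held 56.7%. Among cells with Dcn and without those adaptors, a UMI of Cx3cr1 was found in 0.196%, 1.57% and 0.946% in K/B.g7 valves at 3, 8 and 25 weeks and in 0.568%, 1.09% and 0.634% in B.g7 valves. In 127 such cells with at least 5 UMIs (median 4795 UMIs), compared with 48320 without the gene (median 3757), Cxcl14, a chemokine, stood at 676 against 205 CPM, Ly6c1 at 494 against 186, Dpep1, a dipeptidase, at 707 against 304, and Ly6a at 2283 against 1153. Ptprc was found in 0.787% against 1.61% of these cells and Csf1r in 0% against 1.014%. The 127 cells were 2, 40 and 38 from K/B.g7 valves and 3, 26 and 18 from B.g7 valves at 3, 8 and 25 weeks. The 48320 were 5096, 7982 and 18838 and 3327, 5089 and 7988. Both sets were pooled over libraries, so differences of age or library are not separated from those that go with Cx3cr1. The longest annotated exon of Cx3cr1 (chr9:120048683-120052343) overlaps the exons of 0 other annotated genes.

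Ligands known to act on the members' pathways were higher in other gates than in the C1q gate. Il4 and Il13, which drive Mgl2 and Retnla in mouse macrophages, stood at 1624 and 2566 CPM in the mast gate of the myeloid cells, each in 6 of 15 cells. Of the 97 Il4 UMIs in myeloid cells, 50 were in the mast gate and 47 in 1 other myeloid cell, and 61 of the 79 Il13 UMIs of the mast gate were in 1 cell. No C1q-gated cell had either gene. Il33, an alarmin that acts on mast cells, was found in 77.5% of mesothelial-gated cells, at 486 CPM. Csf1, the macrophage growth factor, stood at 617 in the mast gate and 181 in mesothelial-gated cells. Cx3cl1, the fractalkine gene, stood at 20.6 in endothelial-gated cells.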
